A study of Mus musculus with 96 samples.

Results

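The late hours of one serum time course were compared with the hours around the end of its first cell cycle: 5 hourly libraries taken 34, 35, 36, 37 and 38 h after serum against 5 taken at 25, 26, 27, 28 and 29 h. Both windows belong to Cycle 1, and the 10 libraries were taken by their labelled time, with earlier results of these data known. The series has 96 samples, of which 64 are labelled Cycle 1 and 32 Cycle 2. All cells were primary mouse embryonic fibroblasts (MEFs) of the CF-1 strain from day 13 embryos, not an established line. They were all kept for 36 h in medium with 0.5% fetal calf serum (FCS) and then given 20% FCS at 0 h, so the windows share strain, starvation and serum and differ in the hours since serum. PolyA RNA was sequenced once at each time. Cycle 2 was a second time course that ended at 27 h, so no other library exists here for the late hours, and the p-values below measure the spread between successive hours of one time course and not between separate cultures.

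Serum growth factors act through receptor tyrosine kinases, and the Ras, Raf and Erk kinases below them switch on immediate early genes such as Fos, Egr1 and Myc within minutes. The same receptors act through PI3 kinase and Akt to keep FoxO transcription factors out of the nucleus. Starved fibroblasts rest in G0, where FoxO targets and Cdk inhibitors are high, and after serum they pass through G1 into S phase, G2 and mitosis. Cells that divide then either enter another cycle or return to rest, depending on the signals they still receive.

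The values are reads on exons scaled to the same total in every library, called normalised read counts below, and they are not corrected for transcript length. They are therefore compared between times and not between genes. A gene was called higher or lower when limma on log2(value + 1) gave a Benjamini-Hochberg adjusted p under 0.05 over all 15895 genes of the table. Differences are on that log2 scale, which understates the change of genes with low values. The library depth recovered from the values was 5680722 to 11925504 reads at 25 to 29 h and 5105638 to 12039956 at 34 to 38 h, and the mean depth did not separate the windows (exact permutation test, two-sided, p = 0.556). The 26 h library agreed least with the others of its window (median r = 0.967 over 9135 genes, against 0.984 to 0.992). Between 86.4 and 87.7% of a library lay in the listed genes at 25 to 29 h and between 84.2 and 85.2% at 34 to 38 h.

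Markers of fibroblasts were high in both windows. The 7 fibroblast markers, among them Col1a1, Vim and Pdgfrb, all had mean values over 100 and summed to 158507 to 188684 at 25 to 29 h and 166879 to 192152 at 34 to 38 h. The other lists were far lower, with sums of 56.3 to 83.9 and 49 to 82.8 for 5 endothelial genes, 632 to 719 and 511 to 676 for 8 macrophage genes, 101 to 257 and 39 to 99.9 for 6 epithelial genes, and 305 to 387 and 336 to 601 for 6 neural genes. The sum of 5 skeletal muscle genes was 1268 to 1989 at 25 to 29 h and 839 to 1220 at 34 to 38 h, and that of 6 adipocyte genes 2120 to 2466 and 2246 to 2495. Of the fibroblast markers 3 of 7 were called lower and 2 higher. Lower calls were made in 3 of 6 epithelial, 4 of 5 muscle, 3 of 8 macrophage, 3 of 6 adipocyte and 1 of 5 endothelial genes. Of the neural genes 1 was higher and 0 lower. Over all genes 11.6% were lower and 22.4% higher. The part of these cell types in the results was not tested. Of 7 erythroid genes 1, Alas2, was in the table, at 0 to 5.02. Fewer cells of a type and less RNA per cell cannot be told apart in such bulk samples.

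The hours at 34 to 38 h were also checked as a second cycle. The median of 58 genes of G2 and mitosis, taken relative to 25 to 29 h, reached 0.40 at 22 h, lay at -0.11 at 29 h and rose again to 0.63 at 36 h before falling to 0.45 at 38 h. The median of 53 genes of G1/S and S phase was 0.33, -0.12, 0.03 and -0.31 at 15, 22, 29 and 38 h. The median of the mitotic transcripts thus rose a second time in the late hours, in 1 course with 1 library per hour. The longest transcripts of all genes also rose, to a median of 0.41 at 36 h (see transcript length below). With the length trend subtracted, the window difference of the mitotic list was 0.33 in place of 0.47. The median of the S phase transcripts did not exceed 0.03 in any library from 30 h on.

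At 34 to 38 h 3557 genes, or 22.4% of the table, were higher than at 25 to 29 h, and 1838, or 11.6%, were lower. Over 2-fold changes were called in 898 genes that rose, or 5.65%, and 332 genes that fell, or 2.09%. Of these, 457 and 184 had a mean of at least 50 in the window where they were higher, and the rest lay below that level. The values of 2494 genes (15.7%) at 34 to 38 h were all above, and those of 1264 genes (7.95%) all below, every value at 25 to 29 h. The median difference of all genes was 0.095, and the share of calls that were rises, 65.9%, was 58.9% after each library was rescaled to a median ratio of 1, 53.1% by edgeR on reads recovered from the values and 50.4% by DESeq2.

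**Figure D1:**
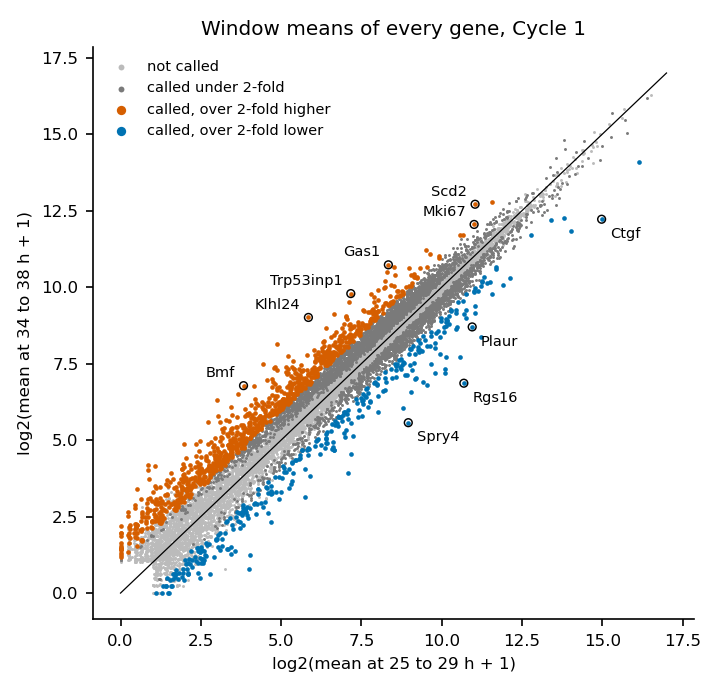
Each point is a gene with a mean of at least 1 in either window, with log2(mean + 1) at 25 to 29 h on the x axis and at 34 to 38 h on the y axis (5 libraries each, Cycle 1), and the line marks equal values. Orange points are the called genes over 2-fold higher (898 over the whole table), blue points those over 2-fold lower (332), and 10 genes are ringed and named.

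Few genes were called between 30 to 33 h and the earlier window. In the 4 libraries of 30 to 33 h only 2 genes, or 0.0126%, were called higher than at 25 to 29 h, and 0 were lower. These were Cxcr2 and Nxpe5, at 0 in all libraries of 25 to 29 h and near a single read at 30 to 33 h. By the same limma fit 511 genes (3.21%) had an unadjusted p under 0.05 for a rise and 610 (3.84%) for a fall. Without the 33 h library 5 genes (0.0315%) were called higher, Cxcr2, Nxpe5, Mup5, Myh15 and Wdr86, all at 0 at 25 to 29 h, and 0 were lower. The 30 h and 31 h libraries were close to the earlier window, the 33 h library lay in between, and the 34 h library lay on the far side.

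The median of the 898 genes over 2-fold higher, which the windows themselves selected, lay 0.14, 0.22, 0.49, 1.01 and 1.65 above 25 to 29 h in the libraries of 30, 32, 33, 34 and 38 h. For the 332 genes over 2-fold lower it was -0.07, -0.15, -0.44, -1.00 and -1.57 in the same libraries. At 35 h the median of the falling genes was -1.36 and that of the rising genes 1.13. Among the genes with a mean of at least 50 in the higher window, the largest of the steps between successive hours that end at 30 to 38 h ended at 34 h in 95 of 184 falling genes (51.6%) and in 175 of 457 rising genes (38.3%). A further 98 rising genes (21.4%) took their largest step at 33 h and as many at 36 h. Steps ending at 30, 31 and 32 h were the largest in 3, 6 and 10 rising genes and in 0, 1 and 0 falling ones. Steps of like size lay in and beside the earlier window. Of 9075 genes, 54 rose and 61 dropped by over 2-fold from 33 to 34 h, 38 and 47 from 26 to 27 h, 6 and 74 from 24 to 25 h, and 0 in either direction in each step from 27 to 32 h, and the median size of a step was 0.148 from 33 to 34 h and 0.255 from 26 to 27 h. The 26 h library is the one that agreed least with its window.

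**Figure D2:**
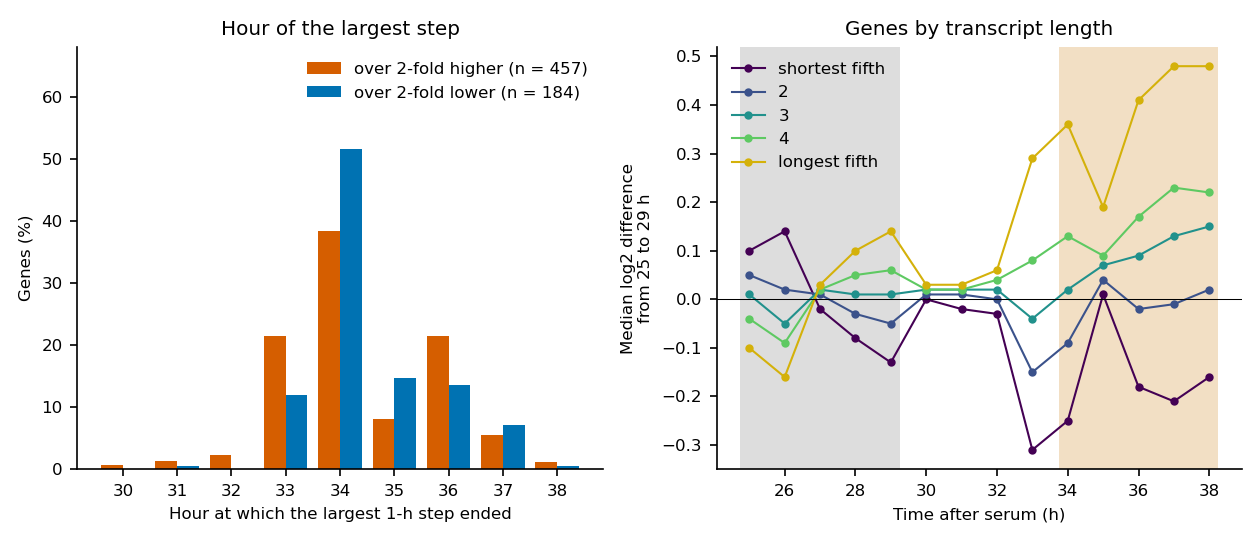
Left, the share of called genes over 2-fold higher (orange) or lower (blue), with a mean of at least 50 in the higher window, whose largest step between successive hours ended at the hour on the x axis, highest at 34 h with 38.3 and 51.6%. Right, the median log2 difference from the mean of 25 to 29 h in each hour for genes in 5 bins of transcript length, with the windows of 25 to 29 h (grey) and 34 to 38 h (tan) shaded; the longest bin stood at 0.06 at 32 h and 0.29 at 33 h.

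Transcript length moved with the windows. Genes with a mean of at least 20 were put in 5 equal bins by the length of their longest coding transcript, which 89.6% of all genes had. The shortest bin had a median difference of -0.16, with 8.54% of its genes higher and 20.7% lower, and the longest bin had 0.39, with 50.3% higher and 5.45% lower. By hour, the longest bin stood at 0.03, 0.29, 0.19 and 0.48 in the libraries of 30, 33, 35 and 38 h, and the shortest at 0.00, -0.31, 0.01 and -0.16. With the length trend of each library subtracted, 2405 genes were higher and 2175 lower of 14245, and 574 and 343 of them by over 2-fold. The part of length in single genes was not tested otherwise.

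The 12 largest falls were Rgs16, Spry4, Egr2, Il6, Ereg, Hbegf, Nr4a1, Errfi1, Il11, Phlda1, Ctgf and Dusp5, with differences of -2.71 to -3.91 on the log2 scale. Rgs16, a GTPase activator that ends G protein signals (chr1:155587479-155592598 in mm9, + strand), had values of 1590, 1500, 1650, 1793 and 1698 at 25 to 29 h. It stood at 1692 at 32 h, 712 at 33 h and 61.5 at 34 h, and at 78.3, 158, 136 and 141 in the last 4 libraries. The window means were 1646 ± 110 and 115 ± 42.4 (SD, n = 5), a difference of -3.91 (SE 0.25, adjusted p = 2.44e-05), and the windows did not overlap.

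Spry4, a feedback inhibitor of Ras signalling (chr18:38745922-38760922, - strand), fell in the same hours. Its values were 461, 410, 512, 558 and 545 at 25 to 29 h, then 476 at 32 h, 160 at 33 h and 15.8 at 34 h, followed by 17.6, 56.2, 69.1 and 73.5. The lowest values of Rgs16 and Spry4 were those at 34 h and 35 h, and the libraries from 36 h on were higher again without reaching the level of the earlier window.

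The EGF receptor ligands Ereg (1106 ± 198 to 144 ± 17.2) and Hbegf (1512 ± 170 to 210 ± 35, SD, n = 5) had differences of -2.92 and -2.85, with adjusted p of 4.51e-06 and 4.2e-06. Errfi1, an inhibitor of the EGF receptor that the receptor itself induces, went from 2383 ± 458 to 331 ± 68.3 (difference -2.84, adjusted p = 2.58e-05). Dusp5, a phosphatase of nuclear Erk, went from 145 ± 13.5 to 22.5 ± 9.18 (difference -2.71, adjusted p = 0.00012). All 4 were lower at 34 h than in every library from 25 to 33 h.

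**Figure D3:**
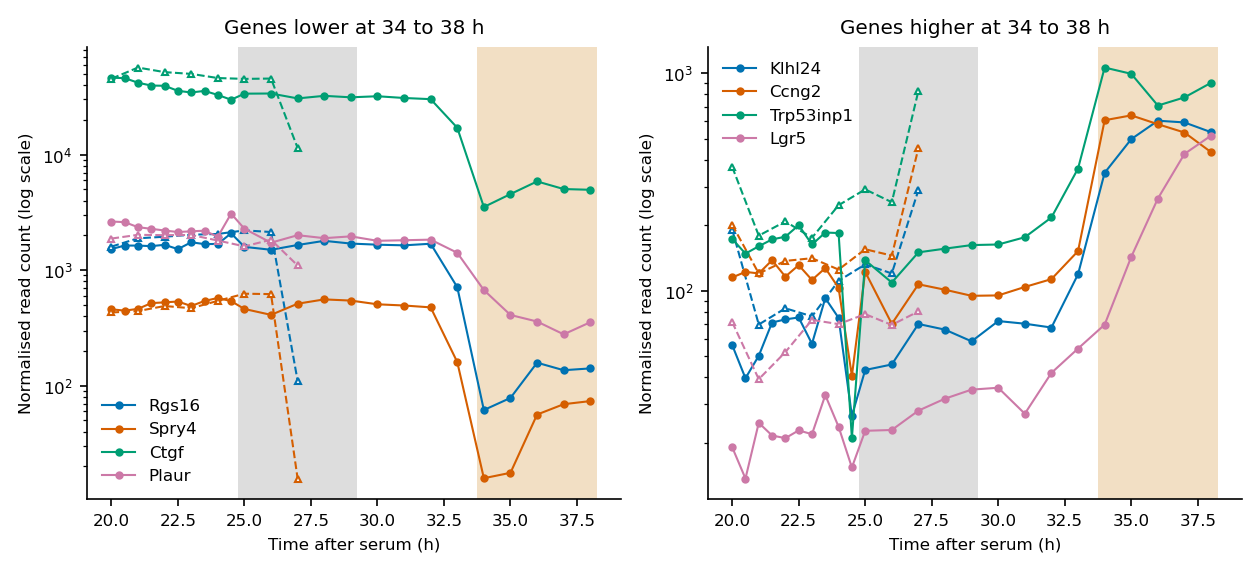
Normalised read count (log axis) of 4 genes lower and 4 genes higher at 34 to 38 h against hours after serum from 20 h on, in Cycle 1 (filled circles, solid lines) and Cycle 2 (open triangles, dashed lines), 1 library per point. The windows of 25 to 29 h (grey) and 34 to 38 h (tan) are shaded: Rgs16 went from 1692 at 32 h to 61.5 at 34 h in Cycle 1 and from 2138 at 26 h to 110 at 27 h in Cycle 2.

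Of 31 immediate early genes 25 (80.6%) were lower and 1 (3.23%) was higher at 34 to 38 h, beside 11.6 and 22.4% of all genes. Their median difference was -1.25, beside 0.095 over all genes. The falls covered the Fos and Jun families (Fos, Fosb, Fosl1, Jun, Junb), the Egr factors, Myc and the dual specificity phosphatases (Dusp1, Dusp2, Dusp4, Dusp5, Dusp6). Klf4, a factor linked to growth arrest, was the member that rose. The values of 23 members at 34 to 38 h were all below those at 25 to 29 h, where 7.95% of all genes showed this.

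Egr2, a zinc finger factor induced by serum (chr10:66998223-67004936, + strand), had 131, 146, 127, 142 and 125 at 25 to 29 h. It was still at 116 at 33 h, and its values were 15.8, 9.79, 17.3, 16.6 and 11.3 from 34 to 38 h (difference -3.18, SE 0.154, adjusted p = 4.99e-06). Dusp6, a phosphatase of Erk in the cytoplasm, fell earlier, from 516 at 32 h to 164 at 33 h and 37.4 at 34 h (window means 523 ± 67.8 and 94.7 ± 38.8, difference -2.57, adjusted p = 0.000639). Egr2 was thus near its earlier level at 33 h while Dusp6 was not.

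Nr4a1, a nuclear receptor induced within minutes of serum, stood at 737 at 33 h and 199 at 34 h and averaged 746 ± 81.3 and 111 ± 53 in the windows (difference -2.84, adjusted p = 0.000171). Myc went from 1410 ± 219 to 395 ± 100 (difference -1.86, adjusted p = 0.000365). Fos, chosen after its values were seen, went from 99.5 ± 22.7 to 24.5 ± 10.5 (difference -2.06, adjusted p = 0.00237). The growth arrest and damage gene Gadd45b, at 631 ± 55.5 and 557 ± 75.7, did not pass the test (adjusted p = 0.211), nor did the nuclear receptor gene Nr4a2, at 66.5 ± 22.4 and 55.5 ± 23.5 (adjusted p = 0.551).

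Genes of a list of cytokines, chemokines and growth factors, which also holds the enzyme genes Ptgs2, Ptges and Has2, fell as a group. In this list 22 of 34 (64.7%) were lower and 3 (8.82%) higher (median -0.96), beside 11.6 and 22.4% of all genes. A mean under 20 was found for 9 of the 34. Il6, an inflammatory cytokine, had 38.9, 35.2, 65.3, 57.9 and 66.4 at 25 to 29 h and 9.14, 0, 5.41, 11.7 and 13.2 at 34 to 38 h (difference -3.00, SE 0.665, adjusted p = 0.00888). Il11, of the same family, went from 449 ± 31.7 to 64.6 ± 24.1 (difference -2.84, adjusted p = 4.14e-05). The chemokine Cxcl12, the interleukin 1 antagonist Il1rn and the hepatocyte growth factor Hgf were the 3 that rose. The receptor Il1rl1 (4005 ± 711 and 3798 ± 803) and the chemokine Ccl7 (752 ± 135 and 554 ± 198) did not pass the test, with adjusted p of 0.736 and 0.147.

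The last library of Cycle 2, which took no part in this comparison, showed the same kind of step. From 26 h to 27 h in Cycle 2 Rgs16 went from 2138 to 110, Spry4 from 620 to 15.7, Dusp6 from 664 to 47 and Ctgf from 45540 to 11417. In the other direction Bmf went from 11.5 to 94.9, Klhl24 from 120 to 290 and Trp53inp1 from 255 to 828. Cycle 1 at 27 h had Rgs16 at 1650 and Bmf at 10, so the step fell at different hours after serum in the 2 courses.

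Set against the mean of 25 and 26 h in Cycle 2, the 27 h library had 243 of the 332 genes over 2-fold lower in Cycle 1 (73.2%) below and 604 of the 898 over 2-fold higher (67.3%) above, while 42.4% of all genes were below and 56.1% above. The medians were -0.35 and 0.21, beside 0.03 for all genes. Between 25 h and 26 h the same medians were -0.01 and 0.03. The median of the immediate early genes in the 27 h library was -1.26 with 18 of 31 over 2-fold lower, that of the cytokines -0.86 with 17 of 34 and that of the FoxO and quiescence genes 0.42. The nucleolar genes (0.03), the genes of G2 and mitosis (0.02) and the actin genes (-0.04) lay near 0 there. With 25 to 27 h of Cycle 2 in place of those of Cycle 1 as the first window, 2092 genes were higher and 1001 lower at 34 to 38 h, and the medians of the clock, interferon-stimulated, matrix, lysosome, G1/S, ribosomal protein, oxidative phosphorylation, proteasome, cytosolic chaperone and glycolysis lists had the opposite sign to those given here. With 1 library at 27 h the values of that hour are descriptions without a test, and what moved with the step was not tested.

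**Figure D4:**
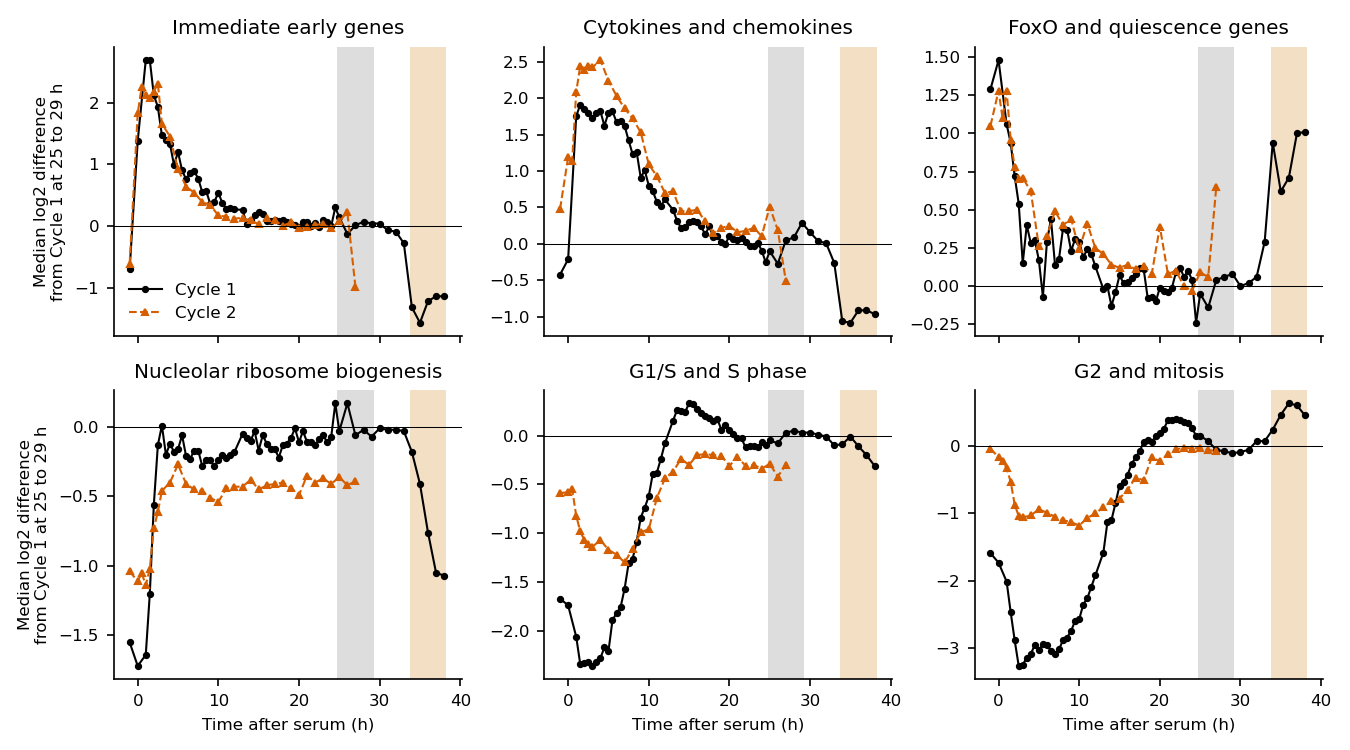
Median over the members of 6 gene lists of the log2 difference from the mean of Cycle 1 at 25 to 29 h, against hours after serum, in Cycle 1 (black circles) and Cycle 2 (orange triangles), 1 library per point, with the windows shaded. Immediate early genes stood at -0.09 at 32 h and -1.32 at 34 h in Cycle 1 and at 0.22 at 26 h and -0.99 at 27 h in Cycle 2, while the nucleolar list declined from -0.18 at 34 h to -1.07 at 38 h.

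Targets of YAP and TEAD, the effectors of the Hippo pathway that respond to cell shape and density, were split. Of 24 members 8 (33.3%) were lower and 4 (16.7%) higher (median -0.23), beside 11.6 and 22.4% of all genes. The matricellular genes led the falls. Ctgf (chr10:24315248-24318489, + strand) had 33697, 33799, 30656, 32263 and 31331 at 25 to 29 h, 30200 at 32 h, 17071 at 33 h, and 3518, 4554, 5860, 5033 and 4960 from 34 h (difference -2.78, SE 0.124, adjusted p = 4.2e-06). Cyr61 went from 16753 ± 1398 to 3644 ± 817 (difference -2.23, adjusted p = 4.55e-05) and Ankrd1 from 2110 ± 114 to 673 ± 171 (difference -1.69, adjusted p = 0.000283). Axl, at 10492 ± 1272 and 10518 ± 559, and Myof, at 3131 ± 367 and 3627 ± 302, did not pass the test (adjusted p = 0.946 and 0.119).

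Of 28 actin and contractile genes 16 were lower and 0 higher (median -0.35; the call rates over all genes were 11.6 and 22.4%). The integrin Itga5 went from 10702 ± 99.3 to 4733 ± 1048 (difference -1.20, adjusted p = 0.000399), the focal adhesion protein Zyx from 12182 ± 1029 to 6657 ± 1638 (-0.90, adjusted p = 0.00321) and beta-actin, Actb, from 55673 ± 5520 to 33686 ± 6566 (-0.74, adjusted p = 0.00435). Actb was at 52939 at 32 h, 42777 at 33 h and 27762 at 38 h. The actin crosslinker Flna, at 31286 ± 1626 and 32578 ± 2205, did not pass the test (adjusted p = 0.559), and with the length trend subtracted its difference was -0.47.

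Of 30 proteases and inhibitors 9 (30.0%) were lower and 7 (23.3%) higher, with a median of -0.15, beside 11.6 and 22.4% of all genes. Plaur, the receptor of the protease urokinase, declined over several hours. Its values were 2283, 1727, 2006, 1891 and 1960 at 25 to 29 h, then 1836 at 32 h and 1413 at 33 h, and 672, 409, 359, 278 and 354 from 34 to 38 h (difference -2.31, SE 0.207, adjusted p = 0.000143). The collagenase gene Mmp13 went from 98 ± 13 to 26.4 ± 19.8 (difference -2.06, adjusted p = 0.00289), with its largest step between 34 h (61.5) and 35 h (17.6).

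The Tgf-beta list held 10 (37.0%) lower and 7 (25.9%) higher of 27, with a median of -0.29. Of all genes 11.6% were lower and 22.4% higher, so the share of rises was near that of all genes. The inhibitory Smad7 went from 1112 ± 48.7 to 420 ± 13.4 (difference -1.40, SE 0.0605, adjusted p = 4.2e-06) and the BMP target Id1 from 1669 ± 248 to 560 ± 102 (-1.58, adjusted p = 0.000175). The receptors Tgfbr1, Tgfbr2 and Tgfbr3 were among the 7 that rose, Tgfbr3 from 501 ± 114 to 899 ± 92.5 (0.87, adjusted p = 0.00522).

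Growth factor receptors, Igf binding proteins and Sprouty genes moved both ways, with 9 of 35 (25.7%) higher, 6 (17.1%) lower and a median of 0.06, near the shares of all genes, 22.4 and 11.6%. The receptor Pdgfra, which is high in resting fibroblasts, went from 1603 ± 247 to 3368 ± 302 (difference 1.08, adjusted p = 0.000399) and Igfbp5 from 234 ± 32.2 to 818 ± 221 (1.77, adjusted p = 0.000274). The Ras inhibitors Spry1, Spry2 and Spry4 all fell, Spry2 from 892 ± 106 to 146 ± 46 (-2.66, adjusted p = 8.9e-05). After subtraction of the length trend 6 of the 35 were higher and 13 lower, and the median was -0.14. It was -0.06 by edgeR, -0.07 by DESeq2 and -0.05 with Cycle 2 as the first window, so the sign of this median was not kept.

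Genes that build ribosomes in the nucleolus fell gradually. Of 37 measured, 28 (75.7%) were lower and 0 higher (median -0.64), beside 11.6 and 22.4% of all genes. With Cycle 2 at 25 to 27 h as the first window 1 of the 37 was called lower (median -0.37). With hours 2 h apart 2 were called lower (median -0.65). The hourly median of the nucleolar ribosome biogenesis list was -0.03, -0.18, -0.41, -0.76 and -1.07 in the libraries of 33, 34, 35, 36 and 38 h. Nop2, a methyltransferase of ribosomal RNA, had 2085, 2352, 1941, 2007 and 1957 at 25 to 29 h and 1433, 1142, 807, 635 and 723 at 34 to 38 h (difference -1.19, adjusted p = 0.00338). Rrs1, an assembly factor, went from 797 ± 147 to 270 ± 88.3 (-1.59, adjusted p = 0.000727). Nucleolin, Ncl, did not pass the test (19113 ± 4614 and 13646 ± 2716, adjusted p = 0.0659), with 27322 in the 26 h library and 16568 to 17691 in the other 4 of that window.

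Of 78 cytosolic ribosomal protein genes 12 (15.4%) were lower and 0 higher (median -0.27), and of 75 mitochondrial ribosomal protein genes 14 (18.7%) and 0 (-0.24), where 11.6% of all genes were lower. Rpl4 stood at 15273 ± 2048 and 13927 ± 1096 and did not pass the test (adjusted p = 0.356). Many ribosomal protein genes have near-identical processed copies, which can take part of their reads, and 17 of the 78 had a mean under 20. Of 34 proteasome subunits 12 (35.3%) were lower and 0 higher (-0.27), and of 77 subunits of oxidative phosphorylation 3 (3.90%) were lower and 1 higher (-0.17). After subtraction of the length trend 4 cytosolic ribosomal protein genes of 77 and 7 proteasome genes were lower, with medians of -0.09 and -0.13.

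The 12 largest rises were Ppp1r3c, Klhl24, Lgr5, Bmf, Ptgfr, Hpgd, Wnt16, Trp53inp1, Lpin1, Kcnj2, Rab3il1 and Crebrf, by 2.54 to 3.34 on the log2 scale. Ppp1r3c, which steers a phosphatase to glycogen (chr19:36806227-36811143, - strand), had 9.73, 8.8, 7.03, 4.19 and 4.88 at 25 to 29 h and 50.7, 58.8, 91.9, 98.4 and 94.2 at 34 to 38 h (difference 3.34, SE 0.262, adjusted p = 7.38e-05). Klhl24, a ubiquitin ligase adaptor (chr16:20097627-20127817, + strand), had 43.2, 45.8, 70.3, 66.2 and 58.5, then 67.7 at 32 h and 119 at 33 h, and 348, 497, 604, 593 and 535 from 34 h (difference 3.16, SE 0.189, adjusted p = 1.99e-05). The mean of the 2 starved libraries of Cycle 1 was 89.9 for Ppp1r3c and 510 for Klhl24.

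Bmf, a pro-apoptotic member of the Bcl2 family that FoxO factors induce (chr2:118354493-118375423, - strand), had the smallest adjusted p of the genes named here. Its values were 15.1, 12.3, 10, 15.1 and 13.7 at 25 to 29 h, 3.56 at 32 h and 19.3 at 33 h, and 113, 102, 108, 107 and 115 from 34 to 38 h (difference 2.96, SE 0.11, adjusted p = 1.63e-06). Its late values lay on a plateau from 34 h on. Trp53inp1, a p53 target in autophagy and cell death (chr4:11083578-11101526, + strand), stood at 217, 364 and 1060 in the libraries of 32, 33 and 34 h, with window means of 143 ± 20.9 and 887 ± 147 (difference 2.62, adjusted p = 1.24e-05).

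Lgr5 and Ptgfr climbed hour by hour. Lgr5, a receptor of R-spondins (chr10:114887367-115024836, - strand), had 22.7, 22.9, 28.1, 31.9 and 35.1 at 25 to 29 h and 69.8, 143, 265, 425 and 516 at 34 to 38 h (difference 2.98, SE 0.495, adjusted p = 0.00272). The prostaglandin receptor Ptgfr rose likewise from 47 at 33 h to 309 at 38 h (window means 20.6 ± 5.82 and 177 ± 91.8, adjusted p = 0.000893). The ligand Wnt16 rose in steps, with 12, 45, 123 and 118 in the libraries of 33, 35, 36 and 37 h (window means 11.7 ± 2.24 and 90.2 ± 46.2, adjusted p = 0.0015). Lgr5 at 38 h was still below the 1828 of the starved libraries.

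Of 30 genes linked to FoxO factors or to rest, 21 (70.0%) were higher and 1 (3.33%), Trib2, was lower, with a median of 0.85. The shares over all genes were 22.4% higher and 11.6% lower. Ccng2, a cyclin that FoxO factors induce and that slows the cycle (chr5:93696283-93705257, + strand), had 122, 70.4, 107, 101 and 94.7 at 25 to 29 h, 113 at 32 h, 152 at 33 h, and 607, 639, 582, 533 and 433 from 34 h (difference 2.49, SE 0.158, adjusted p = 2.43e-05). Gas1, named for its rise in growth arrest, went from 322 ± 39.9 to 1694 ± 379 (2.37, adjusted p = 3.5e-05), and its starved mean was 7292. Rbl2, the p130 protein that represses E2F targets in rest, went from 138 ± 22.8 to 433 ± 104 (1.62, adjusted p = 0.000459), and Sesn3, an inhibitor of mTORC1, from 22.6 ± 5.47 to 125 ± 67.5 (2.26, adjusted p = 0.003). Cited2, a transcriptional coregulator, at 1846 ± 296 and 1473 ± 173, did not pass the test (adjusted p = 0.0964). With the length trend subtracted the median of the list was 0.66, with 19 higher and 1 lower.

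Among the 8 Cdk inhibitors 4 (50.0%) were higher and 0 lower, beside 22.4 and 11.6% of all genes. Cdkn1b, or p27, the inhibitor best known from resting cells, had 333, 361, 340, 340 and 343 at 25 to 29 h and 777, 742, 524, 672 and 691 at 34 to 38 h (difference 0.97, SE 0.105, adjusted p = 0.000341), and its starved mean was 685. Cdkn2c (144 ± 19.8 to 220 ± 27.9, adjusted p = 0.00511), Cdkn2b (286 ± 32.2 to 433 ± 109, adjusted p = 0.0292) and Cdkn2d (7.26 ± 2.01 to 15.1 ± 3.02, adjusted p = 0.00632) rose as well, the last at a very low level. Cdkn1a, or p21, the p53 target, was at 2655 ± 135 and 2612 ± 518 and did not pass the test (difference -0.04, adjusted p = 0.815). Neither did Cdkn1c (255 ± 98.7 and 248 ± 60.8), which had been at 5033 in the starved libraries, Cdkn2a (67.3 ± 17.2 and 69.4 ± 12.9) or Cdkn3 (168 ± 21.8 and 168 ± 32.2), with adjusted p of 0.997, 0.824 and 0.955.

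Of 28 p53 targets 10 (35.7%) were higher and 4 (14.3%) lower (median 0.21), beside 22.4 and 11.6% of all genes. Beside Trp53inp1 the mTORC1 inhibitor Ddit4l rose from 91.9 ± 7.51 to 328 ± 60.7 (difference 1.80, adjusted p = 6.77e-05), while the kinase Plk2, which is also an immediate response to serum, fell from 2225 ± 264 to 942 ± 238 (-1.27, adjusted p = 0.00163). Epha2, an ephrin receptor, fell from 890 ± 143 to 290 ± 60.5 (-1.62, adjusted p = 0.000349).

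Within Cycle 1 the cell cycle genes split by phase. Of 58 genes of G2 and mitosis 37 (63.8%) were higher and 0 lower (median 0.47), beside 22.4 and 11.6% of all genes. With hours 2 h apart 6 of the 58 were called higher (median 0.44), where 822 of all 15895 genes were. Mki67, the coat protein of mitotic chromosomes, had 1982, 2097, 1968, 2047 and 2214 at 25 to 29 h, 3532 at 33 h, and 3687, 3590, 4982, 4749 and 4133 from 34 h (difference 1.02, SE 0.104, adjusted p = 0.000264). Aspm, at the spindle poles, had 383, 354, 331, 309 and 327 and then 637, 934, 1386, 1286 and 1121 (1.60, SE 0.195, adjusted p = 0.000639). Its 36 h value was above every earlier hour of Cycle 1. Cenpf, of the kinetochore, went from 561 ± 70 to 1378 ± 290 (1.28, adjusted p = 0.000628) and the spindle motor Kif11 from 769 ± 83.3 to 1499 ± 274 (0.95, adjusted p = 0.00148).

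The kinase that drives entry into mitosis was level, with Cdk1 at 2977 ± 459 and 2918 ± 336 (adjusted p = 0.899), and the spindle factor Tpx2 at 3035 ± 215 and 3207 ± 265 (adjusted p = 0.488). Once the length trend was subtracted 30 of the 58 were higher and 1 lower.

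Of 53 genes of G1/S and S phase 13 (24.5%) were lower, 5 (9.43%) higher and 35 not called, with a median of -0.13. Of all genes 11.6% were lower and 22.4% higher. The sign of this list turned with Cycle 2 at 25 to 27 h as the first window, with 5 higher, 0 lower and a median of 0.2. Ccne1, the cyclin of S phase entry, had 921, 988, 989, 969 and 991 at 25 to 29 h and 816, 711, 555, 416 and 399 at 34 to 38 h (difference -0.80, SE 0.194, adjusted p = 0.0126). Ung, a DNA repair glycosylase, went from 258 ± 52.7 to 129 ± 49 (-1.05, adjusted p = 0.013; 0.09 against Cycle 2 at 25 and 26 h), and the repressor Rbl1 rose from 194 ± 36.7 to 360 ± 64.1 (0.89, adjusted p = 0.00424). The ribonucleotide reductase subunit Rrm1 (5275 ± 66.3 and 5687 ± 309) and the helicase subunit Mcm5 (2338 ± 91.8 and 2012 ± 184) did not pass the test, with adjusted p of 0.201 and 0.0527. Cyclin D1, Ccnd1, the sensor of mitogens at the start of the cycle, named after its values were seen, went from 3406 at 33 h to 1341 at 38 h (window means 3394 ± 83 and 1993 ± 654, adjusted p = 0.0119). With Cycle 2 at 25 to 27 h as the first window, where Ccnd1 stood at 1518, 1411 and 1419, its difference was 0.40. Its starved mean in Cycle 1 was 671. Of the 63 cell cycle genes listed by the study 23 (36.5%) were higher and 11 (17.5%) lower (median 0.12).

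Promoters of whole gene lists, and of the called genes over 2-fold, were read from RefSeq to show what they share and do not share. RefSeq promoters on GRCm38.p6 matched 11510 of the 15895 genes, and the 250 bases before the start were searched on both strands. CCAAT, the box bound by NF-Y, was in 36 of 47 promoters of the G2 and mitosis list (76.6%) and in 35.5% of all, and TTTGAA, a core found in cell cycle homology regions, in 15 of 47 (31.9%) and 10.6%. In the 42 promoters of the G1/S list CCAAT was in 66.7% and TTTGAA in 9.52%, and the E2F-like words TTTCGCG, TTTCCCGC and TTTGGCGC in 14.3, 9.52 and 14.3%, against 1.28, 1.60 and 0.782% of all. These lists were put together by known function, so the shares describe the lists and not the late hours. Below are 3 promoters of mitotic genes that rose, each 5′ to 3′ on its own strand, with CCAAT and TTTGAA or their complements in capitals.
Mki67, chr7:135716380-135716629 (- strand): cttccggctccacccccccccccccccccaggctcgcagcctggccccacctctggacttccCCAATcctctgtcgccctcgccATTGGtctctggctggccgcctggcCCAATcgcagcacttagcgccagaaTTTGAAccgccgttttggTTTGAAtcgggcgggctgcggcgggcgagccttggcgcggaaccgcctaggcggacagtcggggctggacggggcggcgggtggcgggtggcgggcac
Kif11, chr19:37376132-37376381 (+ strand): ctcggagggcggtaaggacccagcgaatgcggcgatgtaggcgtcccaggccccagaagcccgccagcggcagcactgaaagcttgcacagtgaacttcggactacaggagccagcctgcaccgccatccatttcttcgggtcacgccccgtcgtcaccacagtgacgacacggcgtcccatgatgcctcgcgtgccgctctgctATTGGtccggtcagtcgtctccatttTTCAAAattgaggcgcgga
Aspm, chr1:139454523-139454772 (+ strand): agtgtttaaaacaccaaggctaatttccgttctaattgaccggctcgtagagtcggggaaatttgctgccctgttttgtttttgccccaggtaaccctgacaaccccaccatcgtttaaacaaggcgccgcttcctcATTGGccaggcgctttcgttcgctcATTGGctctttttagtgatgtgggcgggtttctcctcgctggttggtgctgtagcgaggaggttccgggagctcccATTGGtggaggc

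Among the genes the windows called, the shares were nearer to those of all promoters. CCAAT was in 39.6% of 636 promoters of genes over 2-fold higher and 28.8% of 222 over 2-fold lower, and CACGTG in 8.65 and 8.56%, against 8.17% of all. TGACGTCA, the word of CREB and ATF factors, was in 2.36% and 4.95% (all 2.64%), and TGATGCAA in 0.314 and 0.901% (all 0.573%). TGACTCA, the AP-1 word, and GTAAACA, the forkhead word, were added after the data had been seen. The former was in 3.46 and 7.21% (all 3.45%). The latter was in 2.04 and 4.50% (all 2.03%), and in 4 of 25 promoters of the FoxO and quiescence list (16%). A match is a description of the letters and not a bound site. TGACTCA was in 0 of 24 promoters of the immediate early list. Several promoters of the largest falls and rises, among them those of Nr4a1, Errfi1, Bmf and Lpin1, held none of the words. The promoters of 2 genes that fell and 1 that rose, all with matches, are shown, with CCAAT boxes, the CACGTG word and TGACTCA or their complements in capitals.
Rgs16, chr1:153740103-153740352 (+ strand): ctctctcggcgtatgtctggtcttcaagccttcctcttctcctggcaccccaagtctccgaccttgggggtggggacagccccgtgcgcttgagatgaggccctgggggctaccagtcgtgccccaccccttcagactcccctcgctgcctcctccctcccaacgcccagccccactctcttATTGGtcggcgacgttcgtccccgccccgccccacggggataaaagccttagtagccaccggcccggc
Il6, chr5:30012864-30013113 (+ strand): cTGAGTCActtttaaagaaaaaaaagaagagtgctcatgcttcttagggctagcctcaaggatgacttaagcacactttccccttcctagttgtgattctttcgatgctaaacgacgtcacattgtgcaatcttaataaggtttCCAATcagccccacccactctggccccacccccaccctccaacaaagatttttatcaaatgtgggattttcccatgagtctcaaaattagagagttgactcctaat
Crebrf, chr17:26715400-26715649 (+ strand): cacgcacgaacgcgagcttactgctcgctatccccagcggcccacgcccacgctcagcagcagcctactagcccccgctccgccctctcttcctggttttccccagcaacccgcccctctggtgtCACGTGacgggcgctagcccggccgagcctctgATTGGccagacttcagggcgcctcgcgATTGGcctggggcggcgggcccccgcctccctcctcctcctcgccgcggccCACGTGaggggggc

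Part of the lipid synthesis genes rose, mostly in the last hours. Of 34 genes of cholesterol and fatty acid synthesis 13 (38.2%, beside 22.4% of all genes) were higher and 0 lower (median 0.42). Their hourly median was 0.13, 0.12, 0.32, 0.68 and 0.97 from 34 to 38 h. Scd2, a fatty acid desaturase, had 1729, 1468, 2369, 2352 and 2603 at 25 to 29 h and 4358, 4176, 6379, 8200 and 10433 at 34 to 38 h (difference 1.61, SE 0.278, adjusted p = 0.00311). The sterol carrier Stard4 rose from 170 ± 28.5 to 390 ± 122 (1.15, adjusted p = 0.00581). Fasn, at 3044 ± 155 and 2691 ± 421, and Scd1, at 1927 ± 336 and 2028 ± 251, did not pass the test (adjusted p = 0.205 and 0.665).

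**Figure D5:**
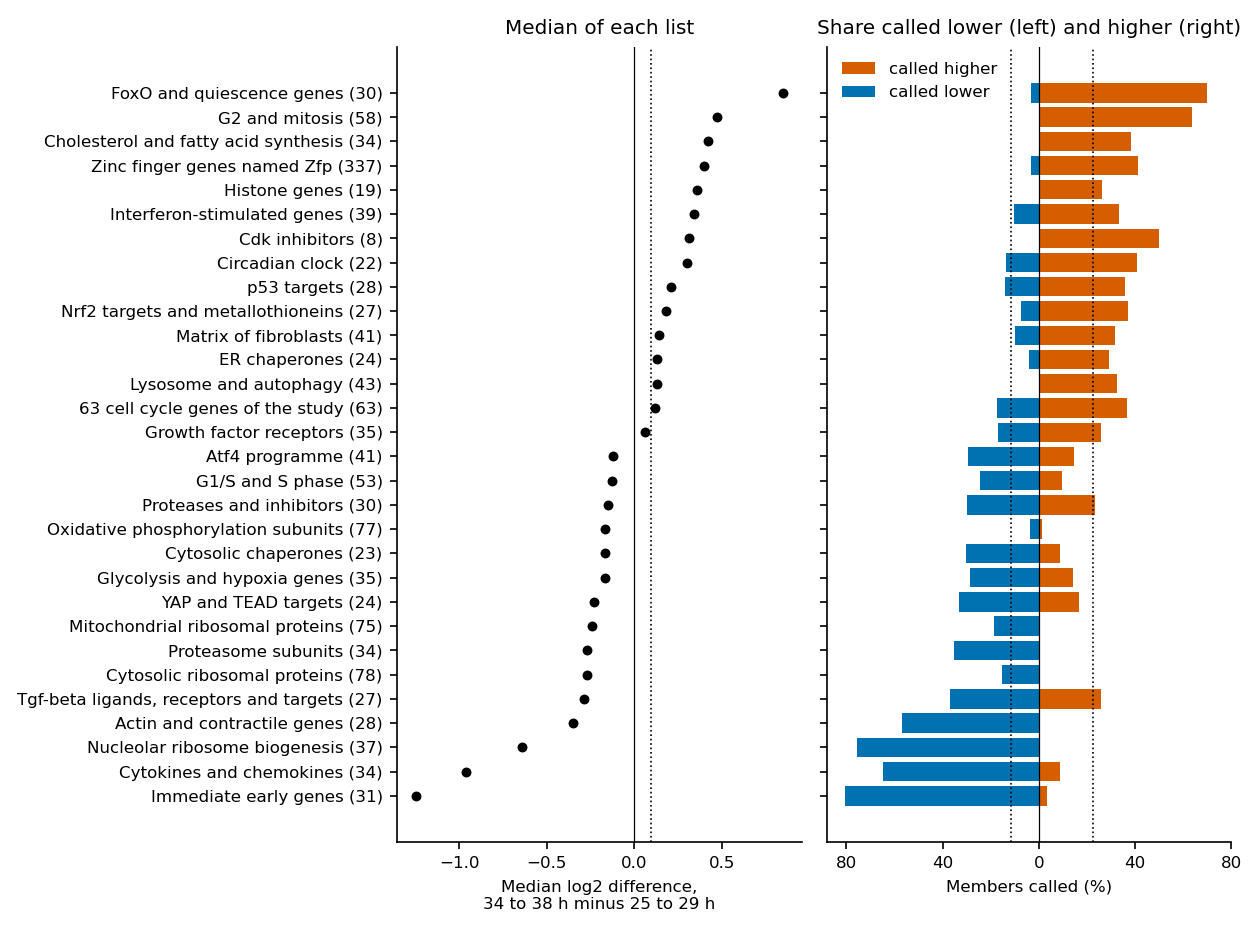
For each gene list (number of genes measured in brackets) the left panel gives the median log2 difference of 34 to 38 h minus 25 to 29 h, with a dotted line at the median of all genes (0.095), and the right panel the share of members called lower (blue, to the left) and higher (orange, to the right), with dotted lines at the shares of all genes, 11.6 and 22.4%. The lists run from the immediate early genes (-1.25) to the FoxO and quiescence genes (0.85).

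Glycolysis and hypoxia genes went both ways, with 10 of 35 (28.6%) lower and 5 (14.3%) higher (median -0.17), beside 11.6 and 22.4% of all genes. Hexokinase 2, Hk2, stayed at 870 at 33 h and 526 at 34 h and was at 170 at 35 h (window means 737 ± 85.4 and 269 ± 149, difference -1.59, adjusted p = 0.00387). Ddit4, an inhibitor of mTORC1, rose from 303 ± 55.4 to 712 ± 95.3 (1.24, adjusted p = 0.000706), and Ndrg1, a stress gene, from 119 ± 8.85 to 344 ± 117 (1.45, adjusted p = 0.00186). The glycolytic enzymes Pkm and Aldoa did not pass the test, with adjusted p of 0.299 and 0.112.

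The Atf4 programme of amino acid supply had 12 of 41 (29.3%) lower and 6 (14.6%) higher (median -0.12), beside 11.6 and 22.4% of all genes. The transporter gene Slc38a2 rose from 3034 ± 625 to 7063 ± 356 (difference 1.25, adjusted p = 0.000585) and the hormone gene Stc2 fell from 125 ± 17.8 to 59.8 ± 15.9 (-1.08, adjusted p = 0.003). Psat1, of serine synthesis, at 5460 ± 248 and 5154 ± 279, did not pass the test (adjusted p = 0.352).

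Of 43 lysosome and autophagy genes 14 (32.6%) were higher and 0 lower (median 0.13), beside 22.4 and 11.6% of all genes. Ulk1, the kinase that starts autophagy, went from 240 ± 18.5 to 488 ± 69.9 (difference 1.01, adjusted p = 0.000323) and Wipi1, of the early autophagosome, from 371 ± 44.6 to 681 ± 116 (0.87, adjusted p = 0.00223). The abundant lysosomal genes Psap and Ctsd did not pass the test (adjusted p = 0.331 and 0.403).

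Metallothioneins, small metal binding proteins, rose sharply. Mt2 had 139, 143, 115, 120 and 123 at 25 to 29 h, 154 at 33 h, and 453, 562, 550, 504 and 618 from 34 h (difference 2.06, SE 0.102, adjusted p = 5.17e-06), and Mt1 went from 293 ± 36.2 to 1005 ± 128 (1.77, adjusted p = 3.32e-05). Cycle 2 had Mt2 at 72.7 at 26 h and 507 at 27 h. With Nrf2 targets such as Gclc, which makes glutathione (604 ± 82.9 to 1125 ± 234, 0.88, adjusted p = 0.0045), 10 of the 27 genes of this list (37.0%) were higher and 2 (7.41%) lower (median 0.18). Of all genes 22.4% were higher and 11.6% lower.

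Of 24 genes of chaperones and protein quality control in the endoplasmic reticulum (ER chaperones) 7 (29.2%) were higher and 1 lower (median 0.13). Of all genes 22.4% were higher. Those 7 included Sel1l (1083 ± 63.2 to 1671 ± 316, adjusted p = 0.00767). Of 23 genes of a cytosolic chaperone list, which also holds mitochondrial members, 7 (30.4%) were lower and 2 higher (-0.17). Of all genes 11.6% were lower. Hspa4l rose from 231 ± 18.4 to 614 ± 149 (1.38, adjusted p = 0.000639) and the mitochondrial Hspd1 fell from 2264 ± 194 to 1647 ± 279 (-0.47, adjusted p = 0.0176). Hsp90ab1 was at 26738 ± 2358 and 24736 ± 774 (adjusted p = 0.276).

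Of 22 clock genes 9 (40.9%) were higher and 3 (13.6%) lower (median 0.30), beside 22.4 and 11.6% of all genes. The output factor Dbp had 57.3, 54.6, 30.1, 36.9 and 27.3 at 25 to 29 h and 78.9, 137, 116, 121 and 122 at 34 to 38 h (difference 1.50, adjusted p = 0.00217). Nr1d2, a repressor of the clock, went from 277 ± 17.3 to 485 ± 30.9 (0.81, adjusted p = 0.000152), but its difference was -0.11 against Cycle 2 at 25 to 27 h, where it stood at 458, 469 and 662. Cry1 went from 197 ± 21.8 to 121 ± 38.1 (-0.74, adjusted p = 0.0186). Clock itself, at 490 ± 93 and 594 ± 71.3, did not pass the test (adjusted p = 0.147).

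Of 39 interferon-stimulated genes 13 (33.3%) were higher and 4 (10.3%) lower (median 0.34), beside 22.4 and 11.6% of all genes. Stat2, which carries the interferon signal, went from 139 ± 22.2 to 304 ± 61.2 (difference 1.11, adjusted p = 0.00186) and Irf1 from 140 ± 11.9 to 250 ± 34.1 (0.82, adjusted p = 0.000809), both below their starved means of 1377 and 557. B2m, the light chain of class I antigens, at 4501 ± 551 and 4213 ± 396, did not pass the test (adjusted p = 0.538).

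Of 41 matrix genes 13 (31.7%, beside 22.4% of all genes) were higher and 4 lower (median 0.14). Vcan, a proteoglycan, went from 1522 ± 341 to 3296 ± 224 (difference 1.14, adjusted p = 0.000916), the collagen crosslinking enzyme Lox from 14404 ± 2642 to 28530 ± 5969 (0.98, adjusted p = 0.00335) and Ogn, a small leucine rich proteoglycan, from 299 ± 72.1 to 1172 ± 657 (1.83, adjusted p = 0.00673). Col1a1 was at 52806 ± 6489 and 58138 ± 5795 (adjusted p = 0.322). Once the length trend was subtracted 7 of the 41 were higher and 10 lower, and the median was -0.11.

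Of 337 zinc finger genes named Zfp 139 (41.2%) were higher and 11 (3.26%) lower (median 0.40), beside 22.4 and 11.6% of all genes. Zfp369 was among those that rose (23 ± 7.54 to 75.3 ± 21.1, difference 1.67, adjusted p = 0.00307). The Zfp transcripts are AT-rich, with a median GC content of 45.9% beside 50.6% over all genes. GC content moved with the windows, from a median difference of 0.27 in the lowest of 5 bins of GC to -0.08 in the highest. Within the lowest bin 51.2% of 123 Zfp genes and 37.7% of 2043 other genes were higher. The median of the Zfp genes was 0.30 without the length trend, with 106 higher and 20 lower of 333. Of 19 histone genes 5 (26.3%) were higher, beside 22.4% of all genes, 0 were lower and 14 had a mean under 20. Their main transcripts lack the polyA tail that the libraries select.

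The late values were set beside the starved libraries of Cycle 2, which share no library with the comparison. Of the 898 genes over 2-fold higher at 34 to 38 h, 814 (90.6%) were higher in the 2 starved libraries of Cycle 2 than at its 25 and 26 h, with a median of 0.92, where 57.9% of all genes were. Of the 332 genes over 2-fold lower, 228 (68.7%) were lower in those starved libraries (median -0.71), where 41.6% of all genes were. The nucleolar genes were lower in the starved libraries in all 37 cases (median -0.67) and the actin genes in all 28 (-0.88). The immediate early genes lay the other way, with a median 0.51 higher in the starved libraries, and so did the cytokines (0.38), the proteases (0.45) and the glycolysis and hypoxia genes (1.14, with 32 of 35 higher), whose late medians were negative. The Nrf2 and metallothionein genes (-0.47), the p53 targets (-0.09) and the genes of G2 and mitosis (-0.03), with positive late medians, also had the opposite sign there. Of the 2 starved libraries the one at 0 h had the immediate early genes high already, with a median of 1.83 relative to Cycle 1 at 25 to 29 h against -0.62 at -1 h. The starved libraries of Cycle 2 were not low in transcripts of G2 and mitosis, with medians of -0.04 and -0.17 on the same scale, where those of Cycle 1 had -1.59 and -1.73.

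Set beside the starved mean of Cycle 1, the late mean was 682 against 685 for Cdkn1b and 516 against 510 for Klhl24. It was well short of the starved mean for Gas1 (1694 against 7292) and Igfbp5 (818 against 18002), and above it for Mki67 (4228 against 1147) and Ccnd1 (1993 against 671). These are means over 5 late and 2 starved libraries, with no test between them.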

How the data were processed

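PolyA RNA of MEFs was sequenced by the authors as single 50-base reads, 12 libraries to a lane. Per the methods of the study, reads were demultiplexed with Casava, aligned to mm9 with STAR and counted on exons with HOMER, on both strands together, so antisense and overlapping genes cannot be told apart. The deposited values are a signal per gene, reads scaled by the authors to a library total of 10000000 and not divided by length. Of 96 columns, 95 were matched to a sample by name and 1 was not used. Genes keep the deposited symbols.

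From these values limma 3.58.1 (R 4.3.3; trend and robust off) was run on log2(value + 1) with 5 libraries in each window over all 15895 genes, and a gene was called at a Benjamini-Hochberg adjusted p under 0.05. The same fit was also run on simulated data, in which the libraries were independent, unlike successive hours of 1 course. Errors are SDs over the 5 hours of a window. A list is described by its counts and median beside those of all genes. The recovered whole reads, within 0.1 of a whole number for 94.2 to 96.2% of values, gave the depth and entered edgeR 4.0.16 and DESeq2 1.42.0 as alternatives. The precision of low genes is set by counting error, which a depth of 5105638 to 12039956 reads limits. The genes named were the 12 largest rises and falls that were called, did not overlap and had a mean of at least 50 in the higher window, then from each list up to 4 called members with the largest difference and up to 2 not called with the highest level, and all Cdk inhibitors. Genes named as chosen after their values were seen, members listed by name for a count, and the genes called at 30 to 33 h fall outside this rule. A gene that the rule would name is not reported here. The windows, members and lists were chosen with earlier results of these data known. Promoters came from RefSeq (GRCm38.p6), gene positions on mm9 from the GENCODE annotation. Alternatives were other pseudocounts, a filter on low values, rescaling, trend and robust, a slope within windows, hours 2 h apart, Cycle 2 as the first window, all Cycle 1 libraries in the fit, each hour left out, and, added later, a fit without the 26 h and 35 h libraries and one with the trend of transcript length subtracted. Python 3.11.15 with pandas 2.3.3 and scipy 1.17.1 was used for summaries.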

Additional observations from a re-analysis of the deposited data

Results flagged for a closer look

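In 290 groups of 5 values, those of the genes named here and of the list medians in each window, a single library stood apart from the other 4 by Dixon's test in 29, where chance gives about 1 in 20. The 26 h library was the one that stood apart in 20 of them. It was low for Ptgfr (10.6 against 20.5 to 25.2), Kcnj2 (8.8 against 28.1 to 37.2), Crebrf (21.1 against 38.1 to 42.8), Errfi1 (1581 against 2432 to 2672), Dusp6 (403 against 543 to 567), Cited2 (1334 against 1888 to 2075), Epha2 (634 against 948 to 963), Ogn (174 against 308 to 361), Ddit4 (206 against 319 to 345), Mmp13 (75.7 against 98.3 to 108), Myc (1033 against 1417 to 1593) and Fos (59.9 against 103 to 116). It was high for Rrs1 (1058 against 702 to 754), Ncl (27322 against 16568 to 17691), Col1a1 (64048 against 48148 to 52301), Pkm (16075 against 10765 to 11715), Irf1 (161 against 131 to 139), Hsp90ab1 (30934 against 25411 to 26075) and Spry2 (1081 against 833 to 859). In other libraries Il11 stood at 394 at 25 h (others 455 to 474), Phlda1 stood at 1275 at 25 h (others 1010 to 1062), Rrs1 stood at 425 at 34 h (others 213 to 254), Cdkn2d stood at 9.97 at 34 h (others 15.1 to 17.6), Mmp13 stood at 61.5 at 34 h (others 13.2 to 20.5) and Zfp369 stood at 39.2 at 35 h (others 74.8 to 91.5). Among the list medians of log2(value + 1), that of the immediate early genes was 8.87 at 26 h against 9.09 to 9.15, that of G2 and mitosis genes was 9.94 at 34 h against 10.3 to 10.44, that of Cdk inhibitors was 7.48 at 34 h against 7.87 to 8.03 and that of oxidative phosphorylation was 9.6 at 35 h against 9.19 to 9.3. Without the 26 h library 3261 genes were higher and 1758 lower at 34 to 38 h.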

How the results depend on the processing

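The 10 libraries are successive hours of 1 course with 1 library each, so neither window has a replicate culture, and the lowest genes rest on few reads. With hours 2 h apart (3 libraries against 3) 822 genes were higher and 378 lower, 385 and 161 of them over 2-fold, and the medians were -0.096 for glycolysis and hypoxia genes, -0.745 for cytokines and -0.193 for Tgf-beta genes. Leaving out each hour in turn gave 2552 to 3794 higher and 1206 to 2098 lower genes, fewest without the 37 h library, medians of -0.199 to -0.068 for glycolysis and hypoxia genes and -0.314 to -0.181 for Tgf-beta genes. A pseudocount of 5 left 582 genes over 2-fold higher and 214 lower, with -0.72 for cytokines, and a mean of at least 20 left 555 and 210, with 0.059 for Cdk inhibitors, -1.19 for cytokines and 0.791 for histone genes. edgeR and DESeq2 on recovered reads called 2863 and 3057 genes lower. The medians by edgeR were 0.055 for matrix genes, -0.254 for glycolysis and hypoxia genes, -0.222 for Atf4 genes, 0.042 for ER chaperones, 0.018 for the study's 63 cell cycle genes and 0.304 for Zfp genes, and by DESeq2 0.043 for matrix genes, -0.266 for glycolysis and hypoxia genes, -0.236 for Atf4 genes, 0.029 for ER chaperones, -0.369 for Tgf-beta genes, 0.005 for the study's 63 cell cycle genes and 0.295 for Zfp genes. Rescaling gave 0.086 for matrix genes, and 26 to 29 h as the first window -0.204 for Tgf-beta genes.

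The next alternatives were chosen after seeing the data, except the first with Cycle 2, and the cause of a change was not tested. With Cycle 2 at 25 to 27 h as the first window, which sets one course against the other, 2092 genes were higher (506 over 2-fold) and 1001 lower. The direction turned in these medians, 0.195 for G1/S genes, -0.037 for matrix genes, 0.02 for glycolysis and hypoxia genes, -0.156 for clock genes, -0.317 for interferon-stimulated genes, -0.09 for lysosome genes, 0.101 for cytosolic chaperones, 0.167 for cytosolic ribosomal proteins, 0.124 for mitochondrial ribosomal proteins, 0.123 for oxidative phosphorylation and 0.092 for proteasome, and in Mcm5 (0.43), Nr1d2 (-0.11), Hsp90ab1 (0.37), Rpl4 (0.37) and Ccnd1 (0.40). Others moved, with -0.366 for nucleolar genes, 0.599 for FoxO genes, -0.033 for Atf4 genes, -0.572 for proteases, 0.507 for Nrf2 and metallothionein genes and 0.205 for the study's 63 cell cycle genes. Without the 27 h library of Cycle 2 1344 genes were higher (520 over 2-fold) and 712 lower, with turned medians of 0.228 for G1/S genes, -0.046 for matrix genes, 0.092 for glycolysis and hypoxia genes, -0.035 for clock genes, -0.363 for interferon-stimulated genes, -0.066 for lysosome genes, 0.113 for cytosolic chaperones, 0.188 for cytosolic ribosomal proteins, 0.161 for mitochondrial ribosomal proteins, 0.159 for oxidative phosphorylation and 0.122 for proteasome, turned values of Ung (0.09), Mcm5 (0.47), Hsp90ab1 (0.41) and Ccnd1 (0.38), and moved medians of -0.386 for YAP targets, -0.37 for nucleolar genes, -1.26 for cytokines, -0.553 for proteases, 0.568 for Nrf2 and metallothionein genes and 0.244 for the study's 63 cell cycle genes. With the length trend subtracted 574 genes were over 2-fold higher, the direction turned for matrix genes (-0.112) and Flna (-0.47) and for the median of the growth factor receptors, and medians were 0.661 for FoxO genes, 0.058 for ER chaperones, -0.141 for growth factor receptors, 0.04 for the study's 63 cell cycle genes, -0.003 for oxidative phosphorylation, -0.133 for proteasome and 0.3 for Zfp genes. The sign of the growth factor receptor median, 0.061 at first, was also turned by edgeR, by DESeq2, with Cycle 2 as the first window and without the 26 h and 35 h libraries. Without the 26 h and 35 h libraries the median was 0.046 for the study's 63 cell cycle genes. Of the 86 called genes named in the text, 32 passed the test under all of the alternatives, among them 13 of the 24 largest rises and falls. No paired analysis was possible because the hours of the 2 windows carry no shared replicate number in the labels.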
